A study of Mus musculus with 24 samples.

Results

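The MHC class II genes of the NanoString mouse immunology panel were examined in the terminal ileum, the last stretch of the small intestine. They were taken by name from the table of deposited values as the class II chains, the invariant chain, the transactivator Ciita, H2-Ob and every gene whose symbol begins with H2-DM. This rule found 9 of the 547 genes in the table, namely Ciita, H2-Aa, H2-Ab1, H2-Eb1, H2-Ea-ps, Cd74, H2-DMa, H2-DMb2 and H2-Ob. All mice were C57BL/6 and were sampled at week 7 of life. The 7 Control mice (4 male, 3 female) received untreated water. The 7 PAT1 mice (4 male, 3 female) were exposed once, as nursing pups, to the macrolide antibiotic tylosin through the milk of a treated dam. The 10 PAT3 mice (4 male, 6 female) had that same course and 2 further tylosin courses after weaning. PAT stands for pulsed antibiotic treatment. Whole litters were assigned to a treatment and mice were housed by sex and treatment, so effects of litter or cage and effects of tylosin cannot be told apart here. The p-values measure the spread between mice.

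MHC class II molecules display peptides from ingested and endosomal proteins to CD4+ T cells. A mouse class II molecule pairs an alpha and a beta chain, and the I-A molecule is built from H2-Aa and H2-Ab1 while the beta chain of I-E comes from H2-Eb1. The C57BL/6 strain does not make the I-E alpha chain, and its gene is listed as the pseudogene H2-Ea-ps. Newly made chains bind the invariant chain Cd74, and the H2-DM heterodimer (H2-DMa with an H2-DMb chain) then exchanges the remnant of Cd74 for other peptides. H2-O, of which H2-Ob is the beta chain, restrains H2-DM and is known mainly from B cells. Ciita does not bind DNA itself. It is recruited by factors sitting on conserved X and Y elements in front of class II genes, and in most cells outside the immune system it is induced by interferon gamma. In the gut, class II is found on dendritic cells, macrophages and B cells, and also on the epithelium when interferon gamma is present.

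The stretches in front of 4 of these genes are shown because they hold letters of elements known from class II promoters and because the 4 genes did not behave alike below. H2-Aa held the Y element and no match to the X element as searched. Each is 120 bases long, from 150 to 31 bases before the annotated start, from the RefSeq promoter table of assembly GRCm38.p6, on chromosome 17 and read 5′ to 3′ on the strand of the gene. Capitals mark the Y element TGATTGG, the X element (AAC, any 2 bases, then ATGATG) or, in H2-Aa, the cAMP response element TGACGTCA.
H2-Aa (chr17:34287854-34287973, minus strand): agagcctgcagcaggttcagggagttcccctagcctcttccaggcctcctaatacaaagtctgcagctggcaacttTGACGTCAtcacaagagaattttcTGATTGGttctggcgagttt
H2-Eb1 (chr17:34305717-34305836, plus strand): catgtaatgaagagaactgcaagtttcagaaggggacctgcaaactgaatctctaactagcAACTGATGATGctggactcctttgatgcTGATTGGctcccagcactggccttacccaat
H2-Ob (chr17:34238755-34238874, plus strand): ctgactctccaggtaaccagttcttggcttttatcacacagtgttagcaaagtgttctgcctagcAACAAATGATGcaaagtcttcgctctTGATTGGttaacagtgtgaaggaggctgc
H2-DMb2 (chr17:34145099-34145218, plus strand): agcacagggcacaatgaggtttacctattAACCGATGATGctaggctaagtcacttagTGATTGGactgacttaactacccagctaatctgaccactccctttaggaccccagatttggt

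In H2-Eb1, H2-Ob and H2-DMb2 the X element was followed by the Y element after 17, 15 and 18 bases. In H2-Aa 16 bases separated the cAMP response element from the Y element. Both strands of the full 300-base promoters, from 250 bases before to 50 after the start, were searched, and the letters of the 3 motifs do not overlap in the printed windows. Of 32851 promoters in the table, 7.82% held the Y element, 0.137% the X element and 1.79% the cAMP response element. The X and Y elements occurred together in 9 promoters (0.0274%), and the cAMP response element with the Y element in 0.152%. The letters of the X element were settled on after these sequences had been looked at, so the rarity of the match is not a test. Both listed starts of H2-DMa lacked all 3 motifs in the printed window. A match is a description and does not show that a factor binds.

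The panel counts transcripts one by one through colour-coded probe pairs. Recovered totals ran from 171671 to 782392 counts per mouse, and no class II gene was at a count of 0 in any mouse. A few mice stood apart. PAT1 replicate 1 had the lowest total. PAT1 replicates 7, 2 and 4 had the highest mean level over 11 B cell genes of the panel (8.23, 7.10 and 6.76 log2 normalized counts, against 4.64 to 6.22 in Control). PAT3 replicate 5 had the lowest mean over 8 epithelial genes (10.93, against 11.43 to 12.73 in Control). All were kept.

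The 9 class II genes together took up 13.8% ± 1.96 of all counts in the Control mice (SD, n = 7). In the PAT1 mice their share was 5.86% ± 1.41 (SD, n = 7), and in the PAT3 mice it was 4.65% ± 1.32 (SD, n = 10). The lowest Control mouse was at 11.2%, and the highest PAT1 and PAT3 mice were at 7.43% and 6.92%. Neither treated group overlapped with Control in this share. The tissue was measured in bulk, so fewer class II-bearing cells and less class II RNA per cell cannot be told apart.

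**Figure D1:**
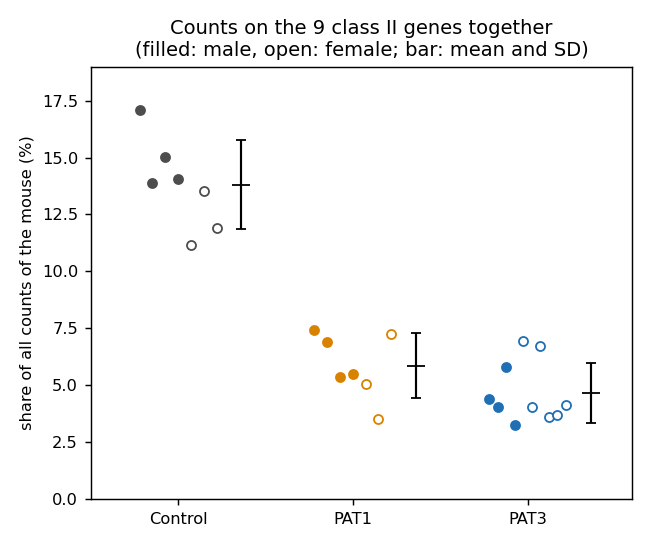
Share of all counts of a mouse (%) that fell on the 9 class II genes, one point per mouse (filled for males, open for females) with the mean and SD of each group. Control mice lie between 11.2% and 17.1%, and the highest treated mouse lies at 7.43%.

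Of the 9 genes, 6 were lower in PAT1 than in Control, and none was higher. They were Ciita, H2-Aa, H2-Ab1, H2-Eb1, Cd74 and H2-DMa. In all, 11.2% of the 547 genes were lower in PAT1 at an adjusted p under 0.05 (limma, Benjamini-Hochberg over all genes), 7.31% were higher and 18.5% were called in all. The same 6 genes were lower in PAT3, where 17.9% of the panel was lower, 13.9% was higher and 31.8% was called in all. Median log2 fold changes of the 9 genes were -1.19 in PAT1 and -1.61 in PAT3, beside 0.01 and 0.03 over all genes of the panel. H2-Ea-ps, H2-DMb2 and H2-Ob did not pass the test in either comparison. Both comparisons use the same 7 Control mice.

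**Figure D2:**
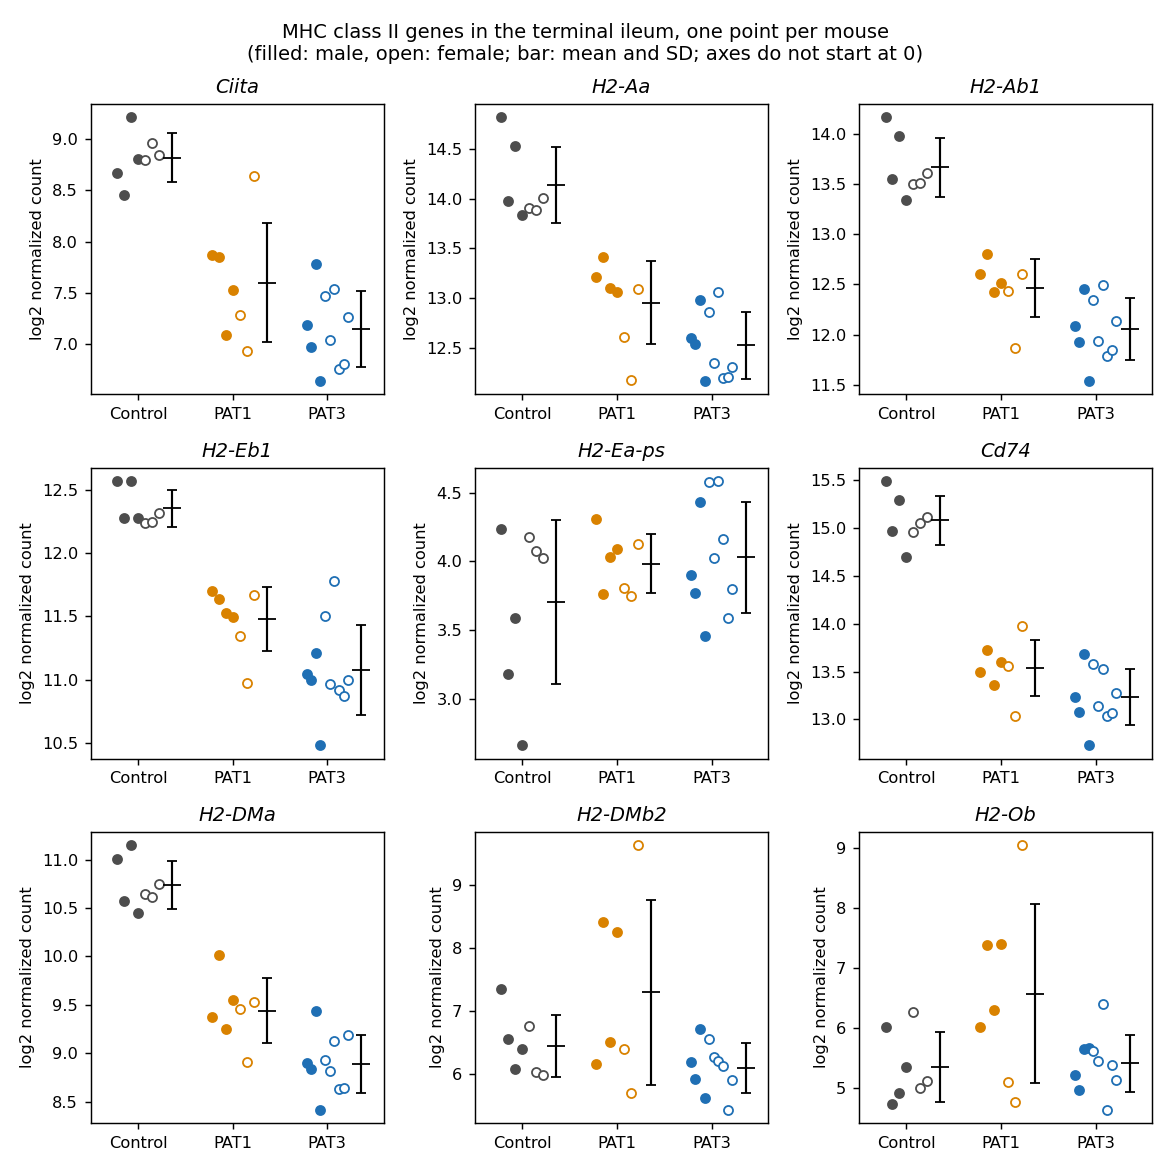
Log2 normalized counts of the 9 genes in Control, PAT1 and PAT3, one point per mouse (filled for males, open for females) with the mean and SD of each group. Levels of different genes come from different probes and are not comparable between panels. In H2-Aa, H2-Ab1, H2-Eb1, Cd74 and H2-DMa every treated mouse lies below every Control mouse, and in H2-DMb2 and H2-Ob a few PAT1 mice lie far above the rest.

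Ciita, the transactivator on which class II transcription depends, was measured at 8.45, 8.80 and 9.22 (lowest, median and highest log2 normalized count) in Control. It was at 6.93, 7.52 and 8.63 in PAT1 and at 6.64, 7.11 and 7.78 in PAT3. PAT3 lay wholly below Control, whereas in PAT1 6 of 7 mice did and replicate 7, at 8.63, fell inside the Control range. Recovered counts were 302 to 693 in Control and 75 to 613 in PAT1, for a counting error near 4.22% and 8.01% at the median. The log2 fold change was -1.22 in PAT1 (SE 0.22, adjusted p = 0.000344, limma) and -1.67 in PAT3 (SE 0.20, adjusted p = 6.32e-07), so that 42.9% and 31.3% of the Control level remained.

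H2-Aa, the alpha chain of I-A, ranged from 13.83 through a median of 13.98 to 14.83 in Control, from 12.18 through 13.09 to 13.42 in PAT1 and from 12.16 through 12.44 to 13.06 in PAT3. Neither treated group overlapped with Control. The log2 fold change was -1.19 in PAT1 (SE 0.20, adjusted p = 0.000238, limma) and -1.62 in PAT3 (SE 0.19, adjusted p = 3.58e-07). Its partner H2-Ab1, the I-A beta chain, ranged from 13.35 through 13.55 to 14.17 in Control, from 11.87 through 12.52 to 12.80 in PAT1 and from 11.54 through 12.01 to 12.49 in PAT3. The groups again did not overlap with Control. It was down by a log2 fold change of -1.20 in PAT1 (SE 0.17, adjusted p = 2.09e-05, limma) and of -1.61 in PAT3 (SE 0.15, adjusted p = 1.68e-08). The 2 chains of I-A thus fell by similar amounts, to 43.9% and 43.4% of Control in PAT1 and to 32.6% and 32.7% in PAT3.

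H2-Eb1, the I-E beta chain, was at 12.24, 12.28 and 12.57 (lowest, median and highest) in Control, at 10.97, 11.52 and 11.70 in PAT1 and at 10.48, 10.999 and 11.78 in PAT3. No treated mouse reached the lowest Control mouse. The log2 fold change was -0.88 in PAT1 (SE 0.16, adjusted p = 0.000356, limma) and -1.28 in PAT3 (SE 0.15, adjusted p = 3.58e-07). These were the smallest falls among the 6 genes that changed, with 54.5% and 41.2% of the Control level remaining.

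H2-Ea-ps, the alpha chain pseudogene of this strain, stayed near the bottom of the measured range in all groups. It gave 9 to 23 counts in Control, 8 to 27 in PAT1 and 12 to 27 in PAT3, with a counting error of about 26.7% at the Control median. Log2 values were 2.66, 4.03 and 4.23 in Control, 3.75, 4.03 and 4.31 in PAT1 and 3.45, 3.97 and 4.58 in PAT3, and the groups overlapped. The differences were 0.28 (95% confidence interval -0.18 to 0.74, adjusted p = 0.432, limma) and 0.32 (-0.10 to 0.75, adjusted p = 0.236). Background counts of the assay were not analysed here, so whether these counts are above background was not tested.

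Cd74, the invariant chain, was measured at 14.69, 15.05 and 15.49 in Control (lowest, median and highest), at 13.04, 13.56 and 13.98 in PAT1 and at 12.73, 13.19 and 13.68 in PAT3. Every treated mouse lay below every Control mouse. The log2 fold change was -1.55 in PAT1 (SE 0.16, adjusted p = 3.18e-07, limma), with 34.3% of the Control level remaining, and -1.85 in PAT3 (SE 0.15, adjusted p = 1.41e-09), with 27.8% remaining. After quantile normalization of the whole panel the PAT1 difference was -0.73 with an adjusted p of 0.0548.

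H2-DMa, the alpha chain of the peptide editor, was at 10.45, 10.64 and 11.15 in Control, at 8.91, 9.45 and 10.01 in PAT1 and at 8.42, 8.86 and 9.43 in PAT3. Both treated groups lay below Control without overlap. The log2 fold change was -1.30 in PAT1 (SE 0.17, adjusted p = 5.88e-06, limma) and -1.85 in PAT3 (SE 0.15, adjusted p = 1.57e-09). Non-overlap with Control held for 5 of the 9 genes in PAT1 and 6 of 9 in PAT3. Over the whole panel, 3.84% of genes lay wholly below Control in PAT1 and 7.31% in PAT3, and 2.38% and 2.01% lay wholly above.

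H2-DMb2, a beta chain that pairs with H2-DMa, behaved differently from its partner. It was at 5.98, 6.40 and 7.36 in Control, at 5.70, 6.51 and 9.62 in PAT1 and at 5.44, 6.16 and 6.71 in PAT3. In PAT1, 3 mice lay above every Control mouse, at 9.62 (replicate 7), 8.41 (replicate 2) and 8.25 (replicate 4), and the other 4 lay at 5.70 to 6.51. The SD was 1.46 in PAT1 against 0.49 in Control and 0.39 in PAT3. The log2 difference was 0.84 in PAT1 (95% confidence interval -0.04 to 1.73, adjusted p = 0.194, limma) and -0.35 in PAT3 (-1.17 to 0.46, adjusted p = 0.509). H2-DMb2 has a closely related neighbour, H2-DMb1, and whether the probe tells the 2 apart is not given in the sources used here.

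H2-Ob, the beta chain of the H2-DM inhibitor, followed the same mice. It was at 4.72, 5.11 and 6.27 in Control, at 4.75, 6.29 and 9.04 in PAT1 and at 4.63, 5.41 and 6.39 in PAT3. PAT1 replicate 7 was the highest mouse at 9.04 (811 counts), and replicates 4 and 2 followed at 7.40 and 7.37. The groups overlapped. The log2 difference was 1.23 in PAT1 (95% confidence interval 0.29 to 2.16, adjusted p = 0.0577, limma) and 0.07 in PAT3 (-0.79 to 0.92, adjusted p = 0.909). Without PAT1 replicate 7 the PAT1 difference was 0.81 (adjusted p = 0.135) for H2-Ob and 0.45 (adjusted p = 0.442) for H2-DMb2. For H2-Ob it passed the test when PAT1 replicate 6 (1.53, adjusted p = 0.0128) or replicate 5 (1.47, adjusted p = 0.0206) or Control replicate 5 (1.38, adjusted p = 0.0397) or replicate 1 (1.34, adjusted p = 0.0498) was left out.

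**Figure D3:**
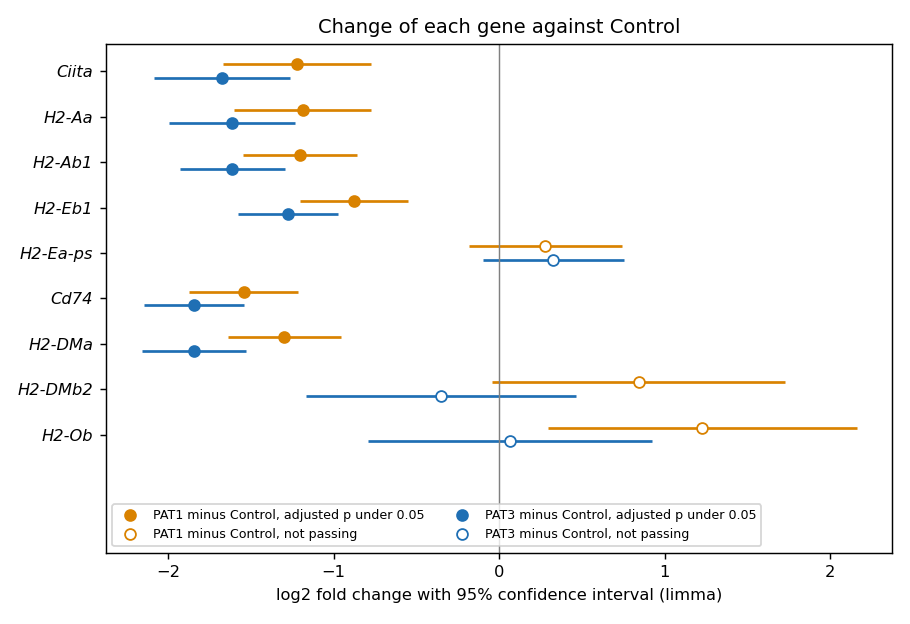
Log2 fold change of each gene in PAT1 and PAT3 against Control with its 95% confidence interval from limma, filled where the adjusted p was under 0.05. The intervals of 6 genes lie wholly to the left of 0 in both comparisons, and the intervals of H2-DMb2 and H2-Ob are the widest.

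In PAT3 against PAT1 the log2 difference was negative for 8 of the 9 genes, from -0.30 for Cd74 to -1.20 for H2-DMb2, and it was 0.05 for H2-Ea-ps. Only H2-DMa passed the test, at -0.55 (SE 0.15, adjusted p = 0.0401, limma), beside 4.2% of all genes called in this comparison, 2.74% lower and 1.46% higher. At an unadjusted p under 0.05, 7 of the 9 genes passed. That call depended on single mice. It was lost on leaving out any 1 of 12 mice (PAT1 replicates 1, 2, 4 or 7, or PAT3 replicates 1 to 6, 8 or 9), when 0 of the 9 genes passed and H2-DMa was between -0.61 and -0.45. The number of genes called rose to 3 without PAT1 replicate 5, to 6 without PAT1 replicate 6 and to 5 without PAT3 replicate 7. For Ciita the difference was -0.45 (95% confidence interval -0.87 to -0.04, adjusted p = 0.134), for H2-Aa -0.43 (-0.81 to -0.05, adjusted p = 0.127) and for Cd74 -0.30 (-0.60 to 0.00, adjusted p = 0.176). For H2-DMb2 and H2-Ob the differences of -1.20 and -1.16 (adjusted p = 0.0652 and 0.0777) became -0.81 and -0.75 without PAT1 replicate 7. By the F-test among the 3 groups 7 of the 9 genes passed, against 34.6% of the panel. They were the 6 genes named above and H2-Ob (adjusted p = 0.0475), while H2-DMb2 was at 0.0545.

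A difference between the sexes was not detectable. In a fit of treatment and sex, 0 of the 9 genes passed the limma test of females against males (0.366% of the panel did), and 1 passed at an unadjusted p under 0.05. That gene was H2-Aa, lower in females by 0.30 (SE 0.15, adjusted p = 0.426), with means of 14.29 in males and 13.94 in females of Control, 13.20 and 12.63 in PAT1 and 12.57 and 12.49 in PAT3. The test for a different treatment effect in the sexes also found 0 of 9 (0.183% of the panel), and 0 at an unadjusted p under 0.05. Within males alone and within females alone, the 6 genes were lower in PAT3. In PAT1 all 6 were lower in males and 4 in females, where Ciita was at -1.25 (adjusted p = 0.0825) and H2-Eb1 at -0.93 (adjusted p = 0.0775) over 3 mice a group. In males alone H2-Ob was higher in PAT1 by 1.52 (adjusted p = 0.0167, limma).

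Ratios within a mouse do not depend on the scaling between mice, and they were used to ask whether the other genes changed by a different amount than Ciita. All 16 differences (8 genes, PAT1 and PAT3 against Control) were tested by two-sided exact permutation with adjustment over the 16. The log2 ratio of H2-Aa to Ciita was 5.32 ± 0.42 in the 7 Control mice, 5.35 ± 0.47 in the 7 PAT1 mice and 5.38 ± 0.16 in the 10 PAT3 mice (mean ± SD). The ratio of Cd74 to Ciita was 6.26 ± 0.31, 5.94 ± 0.35 and 6.09 ± 0.12 in the same order. For H2-Aa, H2-Ab1, Cd74 and H2-DMa the differences in ratio lay between -0.32 and 0.06 and did not pass (adjusted p from 0.143 to 0.922 by the exact permutation test), so a different change than that of Ciita was not detectable over all mice. In females alone the ratio of H2-Ab1 to Ciita was higher in PAT3 by 0.27 (adjusted p = 0.0381, exact permutation test), and in males alone the difference was -0.12 (adjusted p = 0.8, exact permutation test).

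For H2-Eb1 the ratio to Ciita was higher by 0.40 in PAT3 (adjusted p = 0.0139, exact permutation test) and by 0.34 in PAT1 (adjusted p = 0.143). The PAT3 difference was 0.15 in males alone (adjusted p = 0.623, exact permutation test) and 0.63 in females alone (adjusted p = 0.0381, exact permutation test). Without PAT1 replicate 7, whose Ciita was high, the PAT1 difference was 0.48 (adjusted p = 0.012, exact permutation test). The ratio of H2-DMb2 to Ciita was higher by 2.06 in PAT1 (adjusted p = 0.00311) and by 1.32 in PAT3 (adjusted p = 0.0011), and that of H2-Ob by 2.45 (adjusted p = 0.00233) and 1.74 (adjusted p = 0.000411), all by the exact permutation test. The ratio of H2-Ea-ps to Ciita is not described, since its counts were near the bottom of the range and the ratio then follows Ciita. The smallest unadjusted p these groups allow is 0.000583 for PAT1 and 5.14e-05 for PAT3.

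Among the 10 PAT3 mice 5 of the 8 other genes followed Ciita from mouse to mouse by both Pearson r and Spearman rho, namely Cd74, H2-Ab1, H2-DMa, H2-Aa and H2-Eb1. The share of all panel genes that would pass in the same way was not computed, so the count is not read as particular to class II. Within these 10 mice Cd74 and Ciita had a Pearson r of 0.968 (permutation p = 1e-05, the smallest these permutations can give, adjusted over 51 pairs p = 0.00051) and a Spearman rho of 0.988, and r was 0.957 without the 2 mice farthest from the median of Ciita. For H2-Ab1 and Ciita r was 0.972 and rho 0.988 (adjusted permutation p = 0.00051 for both), and 0.981 without those 2 mice. H2-DMa gave r = 0.929 and rho = 0.952 (adjusted permutation p = 0.00115 and 0.00119), and H2-Aa gave r = 0.905 and rho = 0.903 (adjusted permutation p = 0.00357 and 0.00859). H2-Eb1 gave r = 0.794 and rho = 0.891 (adjusted permutation p = 0.0185 and 0.00859). H2-DMb2 (r = 0.791, rho = 0.733) and H2-Ea-ps (r = 0.786, rho = 0.733) passed by r alone, with adjusted permutation p of 0.0272 and 0.0301 for r and 0.0714 for rho in both. H2-Ob did not pass, with r = 0.508 and rho = 0.394 (adjusted permutation p = 0.225 and 0.375). The values of a mouse share its size factor, which such correlations include. In the 7 Control mice the r of Cd74, H2-Ab1, H2-DMa, H2-Aa and H2-Eb1 with Ciita lay between 0.157 and 0.487 with unadjusted permutation p from 0.273 to 0.715. Without the 2 mice farthest from the median of Ciita it was negative, from -0.778 to -0.468. In the 7 PAT1 mice the r of these genes lay between 0.561 and 0.887. Cd74 passed there by r (adjusted permutation p = 0.0317, r = 0.647 without the 2 farthest mice) and not by rho (adjusted permutation p = 0.11). Whether the relation differs between groups was not tested.

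The B cell genes of the panel bear on the class II genes because B cells make class II in their own right. The list held 11 genes of the panel, among them Ms4a1, Cd79a, Cd79b, Cd22, Pax5, Cr2, Blnk, Btk, Cxcr5 and Tnfrsf13c, with none of them at a count of 0 in any mouse. Its summed level was 984 to 1768 normalized counts in Control, 767 to 5720 in PAT1 and 757 to 1282 in PAT3. That sum is weighted to Blnk, the most abundant of the 11 (mean log2 9.56 in Control and 9.34 in PAT3). The list mean, which weights genes equally, was 4.64 to 6.22 in Control, 4.39 to 8.23 in PAT1 and 3.98 to 5.43 in PAT3. Log2 fold changes of the 11 ran from -0.31 to 1.45 in PAT1 (median 0.73) and from -1.28 to -0.06 in PAT3 (median -0.67). None of the 11 passed the limma test in PAT1 (1 did at an unadjusted p under 0.05, and 1 by voom on the recovered counts), and 1 was lower in PAT3, Cd79b, part of the B cell receptor, at -1.26 (adjusted p = 0.0321). The 3 PAT1 mice with the highest B cell list mean were the same 3 that had the highest H2-DMb2 and H2-Ob. The 7 PAT1 mice fell into 3 with B cell list means of 6.76 to 8.23 and 4 with means of 4.39 to 5.12, so a correlation across them rests on that split. By r, H2-DMb2 (0.979), H2-Ob (0.966), Ciita (0.843) and Cd74 (0.833) passed there (adjusted permutation p = 0.0172, 0.0116, 0.0429 and 0.0405), and none passed by rho. Without the 2 farthest PAT1 mice the r was 0.928, 0.919, 0.485 and 0.528. Among the 10 PAT3 mice the B cell list mean followed H2-Eb1 (r = 0.912, rho = 0.903, adjusted permutation p = 0.00115 and 0.00859), H2-Aa (r = 0.827, rho = 0.83, adjusted permutation p = 0.00245 and 0.0309) and H2-Ea-ps (r = 0.786, rho = 0.842, adjusted permutation p = 0.0167 and 0.0295). Without the 2 mice farthest from the median of the list mean the r was 0.685, 0.771 and 0.679. H2-Ab1 passed by r alone (r = 0.792, rho = 0.77, adjusted permutation p = 0.0182 and 0.0648), and H2-Ob (r = 0.519, adjusted permutation p = 0.225) and H2-DMb2 (r = 0.503, adjusted permutation p = 0.23) did not pass. Cd74 (r = 0.701), Ciita (r = 0.673) and H2-DMa (r = 0.554) did not pass either (adjusted permutation p = 0.0566, 0.0601 and 0.202). In the 7 Control mice H2-DMb2 passed by r alone (r = 0.933, rho = 0.857, adjusted permutation p = 0.0172 and 0.0714). H2-Ob did not pass there (r = 0.900, adjusted permutation p = 0.0597). Without the 2 farthest Control mice the r was 0.679 for H2-DMb2 and 0.508 for H2-Ob.

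**Figure D4:**
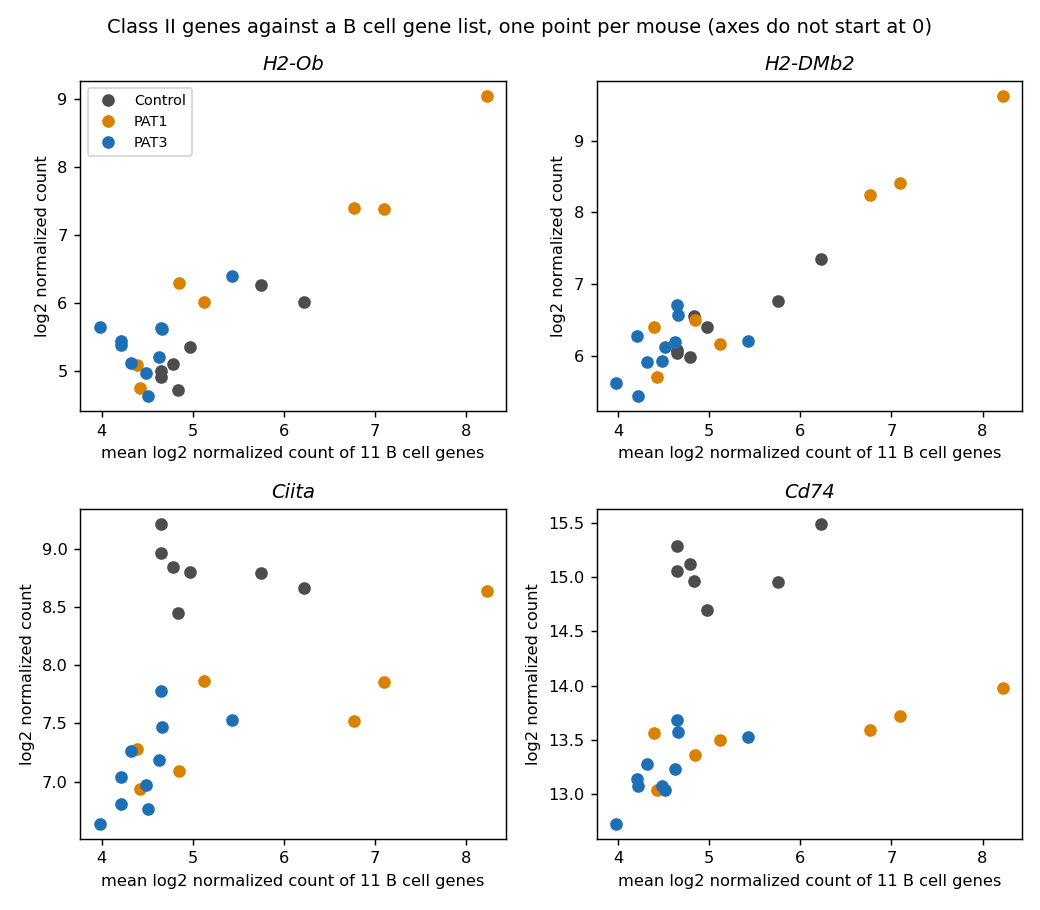
Log2 normalized counts of H2-Ob, H2-DMb2, Ciita and Cd74 against the mean log2 normalized count of 11 B cell genes, one point per mouse. H2-Ob and H2-DMb2 are highest in the 3 PAT1 mice with the highest B cell mean, while Cd74 in those mice is at most 13.98 and the Control mice lie at 14.69 or higher.

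PAT1 replicate 7 had the highest B cell list mean of all 24 mice and its Ciita lay in the Control range, while its Cd74 (13.98), H2-Aa (13.09), H2-Ab1 (12.60), H2-Eb1 (11.67) and H2-DMa (9.52) all lay below the lowest Control mouse. When the mean of the B cell genes was entered as a covariate, the falls of the 6 genes were about as large, for Ciita -1.43 in PAT1 and -1.499 in PAT3 (adjusted p = 7.16e-06 and 4.81e-07, limma) and for Cd74 -1.68 and -1.73 (adjusted p = 8.89e-09 and 7.55e-10). In that fit the PAT1 differences of H2-DMb2 and H2-Ob shrank to 0.21 and 0.57 (adjusted p = 0.491 and 0.0574), and H2-Ob was higher in PAT3 by 0.63 (adjusted p = 0.0168). The part of B cells in the class II result was not tested.

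Markers of other cells that can carry class II were examined in the same way. Of 5 dendritic cell genes in the panel (Itgax, Batf3, Xcr1, Clec4a4 and Ccr7) none was lower, and Clec4a4, a lectin of dendritic cells, was higher in PAT1 by 0.91 (adjusted p = 0.00496, limma). In PAT3 none of the 5 was called (1 at an unadjusted p under 0.05, and none by voom). Their summed level was 241 to 394 normalized counts in Control, 273 to 414 in PAT1 and 195 to 404 in PAT3. Of 9 macrophage genes 2 were lower in both treated groups, beside 11.2% of the panel in PAT1 and 17.9% in PAT3. They were the integrin chain Itgam (-0.92 and -0.68) and the scavenger receptor Msr1 (-0.61 and -0.46). Re-centring, quantile normalization and total count scaling each left 1 of the 9 lower in PAT3. Summed levels of the 9 genes were 1775 to 2598 in Control, 1478 to 2007 in PAT1 and 1593 to 2253 in PAT3. The falls of the 6 class II genes were about as large with the mean of these dendritic cell and macrophage genes as a covariate, at -1.11 and -1.52 for Ciita and -1.51 and -1.79 for Cd74.

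Of 8 epithelial genes, 2 were lower and 2 higher in PAT1, and 3 lower and 2 higher in PAT3. The panel shares were 11.2% lower and 7.31% higher in PAT1, and 17.9% lower and 13.9% higher in PAT3. Pigr, which carries IgA across the epithelium, fell by 1.32 in PAT1 and by 0.90 in PAT3 (adjusted p = 0.00321 and 0.0166, limma), and the adhesion molecule Ceacam1 fell by 1.26 and 1.05. Ccl25, a chemokine of the small intestine, rose by 1.13 and 0.81. Summed levels ran from 72693 to 131939 normalized counts in Control, from 39756 to 101811 in PAT1 and from 46061 to 99407 in PAT3. These sums lean on Pigr and Ceacam1, the most abundant of the 8 in Control (mean log2 15.52 and 14.92). With every gene weighted equally, Control mice averaged 12.21 ± 0.48 log2 normalized counts (SD), PAT1 mice 12.29 ± 0.43 and PAT3 mice 12.17 ± 0.52. After quantile normalization 1 epithelial gene was lower in each treated group. With the mean of these genes as a covariate Cd74 was at -1.53 and -1.85.

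Most T cell genes moved in the same direction as class II. Of 10 genes in the list, 3 were lower in PAT1 and 9 in PAT3 (limma), with medians of -0.44 and -1.18. Of the whole panel 11.2% and 17.9% were lower. In PAT1 the other 7 did not pass, and Cd2 was at 0.32 (adjusted p = 0.525, limma). Re-centring, quantile normalization and total count scaling left 8, 7 and 8 of the 10 lower in PAT3. The CD8 chain Cd8a changed by -0.94 and -1.84, the CD3 chain Cd3e by -0.90 and -1.38 and the surface receptor Cd6 by -0.85 and -1.39, all called, while Cd5 was called in PAT3 (-1.31) and was at -0.71 in PAT1 without passing. Summed levels were 948 to 1146 normalized counts in Control, 554 to 1189 in PAT1 and 377 to 679 in PAT3, where they lay wholly below Control. With the mean of these T cell genes as a covariate, 2 of the 9 genes stayed lower in PAT3, Cd74 at -1.15 (adjusted p = 0.0133) and H2-DMa at -1.11 (adjusted p = 0.0145). Ciita was then at -0.54 (adjusted p = 0.33), H2-Aa at -0.88 (adjusted p = 0.146), H2-Ab1 at -0.88 (adjusted p = 0.0624) and H2-Eb1 at -0.60 (adjusted p = 0.186). In PAT1 the same covariate left all 6 lower, with Ciita at -0.71 (adjusted p = 0.0124), and 8 of the 9 genes were called. The others called in that fit were H2-DMb2 and H2-Ob, which were higher in PAT1. The T cell list mean was 6.41 to 6.63 in Control and 4.91 to 5.91 in PAT3, without overlap. That fit therefore cannot separate the covariate from the PAT3 group. The part of T cells in the class II result was not tested.

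Interferon gamma signalling is the route by which Ciita is induced outside professional antigen-presenting cells, and 11 genes of it were on the panel. In PAT1 4 were lower and 2 higher, and in PAT3 5 were lower and 2 higher (limma). Beside them, 11.2% of the panel was lower and 7.31% higher in PAT1, and 17.9% lower and 13.9% higher in PAT3. Socs3, a feedback inhibitor of cytokine signalling, changed most, from a mean of 7.25 in Control to 5.94 in PAT1 and 5.71 in PAT3 (log2 fold changes -1.31 and -1.54, SE 0.22 and 0.20, adjusted p = 0.000203 and 1.65e-06). The related inhibitor Socs1 was at -0.54 in PAT1 (adjusted p = 0.0512) and fell by 0.84 in PAT3.

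The receptor chain Ifngr2 moved the other way, up by 0.96 and 0.61. Irf1 and Irf8, transcription factors downstream, also fell in both groups, and the receptor chain Ifngr1 was the other that rose. Ifng itself was near the bottom of the range, at a median of 10 counts in Control, and its differences of -0.15 and -0.55 did not pass (adjusted p = 0.732 and 0.0746). With the values re-centred on the median of each mouse, 2 and 4 of the 11 genes were lower in PAT1 and PAT3.

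**Figure D5:**
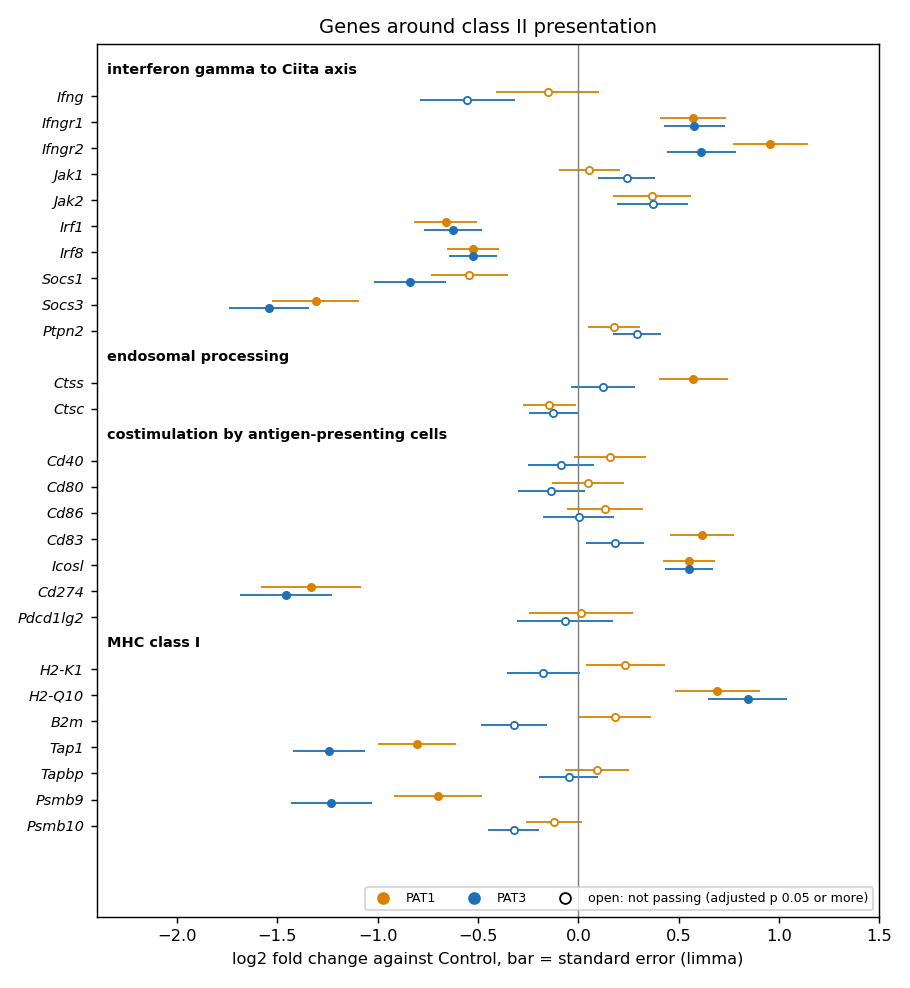
Log2 fold changes in PAT1 and PAT3 against Control of further genes around class II presentation, with the standard error from limma, filled where the adjusted p was under 0.05. Socs3, Cd274, Tap1 and Psmb9 lie to the left of 0 in both groups, and Ifngr1, Ifngr2, Icosl and H2-Q10 to the right.

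The other steps of presentation gave a mixed picture. Of 2 endosomal proteases on the panel, Ctss, which trims the invariant chain, was higher in PAT1 by 0.57 (adjusted p = 0.0189, limma) and at 0.12 in PAT3, and Ctsc did not pass in either group. Cd4, the co-receptor that binds class II, was lower in PAT3 by 0.39 (adjusted p = 0.0448) and at -0.22 in PAT1. The PAT3 call of Cd4 was lost after re-centring, quantile normalization or total count scaling. Of 7 ligands and receptors by which presenting cells signal to T cells, the inhibitory ligand Cd274 (PD-L1) changed by -1.33 and -1.46 (adjusted p = 0.00044 and 2.25e-05, limma). Icosl, the ICOS ligand, was higher by 0.55 in both groups, and Cd83, an activation marker of dendritic and B cells, was higher by 0.62 in PAT1 and at 0.18 in PAT3, where it did not pass. Cd40, Cd80, Cd86 and Pdcd1lg2 did not pass in either group.

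The class I pathway, which serves CD8+ T cells and draws on some of the same interferon-induced genes, was represented by 7 genes. The peptide transporter Tap1 changed by -0.80 and -1.24 and the immunoproteasome subunit Psmb9 by -0.70 and -1.23, both called in both groups by limma. After re-centring, and after total count scaling, only 1 of the 7 genes was lower in PAT1. H2-Q10, a secreted class I chain, was higher by 0.69 and 0.84. The class I heavy chain H2-K1 (0.23 and -0.17), the light chain B2m (0.18 and -0.32), Tapbp and Psmb10 did not pass. Of 8 genes of type 3 innate lymphoid cells, a further class II-bearing population of the gut, none was called in PAT1 (2 at an unadjusted p under 0.05, and 2 by voom). In PAT3 the cytokine Il22 was lower by 1.56 and the growth factor receptor Kit higher by 0.68. Il22 was near the bottom of the range, at a median of 6 counts in Control and 3 in PAT3.

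Beyond these lists, the panel genes whose pattern was nearest to the mean of Cd74, H2-Aa, H2-Ab1, H2-Eb1 and H2-DMa over all 24 mice were Cd6 (Pearson r 0.893), the chemokine Cxcl9 (0.892), the receptor chain Il2rb (0.884), the inhibitory receptor Tigit (0.88) and the inducible nitric oxide synthase Nos2 (0.874). These values include the group differences that all of them share. On deviations from the group means the nearest were Cd5 (0.753), Cd247 (0.746), Tnfrsf13b (0.67), Sh2d1a (0.667) and Arhgdib (0.64). For Ciita the nearest over all mice were Cd6 (0.9), Cd3e (0.869), Itgal (0.867), Cxcr6 (0.864) and Lck (0.863), and on deviations Ptprc (0.803), Ikzf1 (0.787), Tlr9 (0.748), Btla (0.736) and Lck (0.72). The r of Cd74, H2-Aa, H2-Ab1, H2-Eb1 and H2-DMa with Ciita lay between 0.912 and 0.945 over all mice. On deviations it lay between 0.607 (H2-Aa) and 0.781 (Cd74), below Ptprc and Ikzf1.

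H2-Ob had different neighbours. Over all mice they included the B cell antigen Ms4a1 (0.897), Ltb (0.891), Btla (0.891) and Cd83 (0.884), and on deviations Btla (0.911), Ltb (0.901) and Cd79b (0.896). The r of H2-Ob with H2-DMb2 was 0.878 over the 24 mice and 0.853 on deviations. With Cd74 it was -0.01 over all mice, which includes the group differences, and 0.541 on deviations. PAT1 replicates 7, 4 and 2 had the highest H2-Ob (9.04, 7.40 and 7.37), and every other mouse was at 6.39 or lower. How far the r values of H2-Ob rest on those mice was not tested.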

How the data were processed

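RNA of 24 terminal ileum samples was hybridised to the nCounter GX mouse immunology panel. The authors normalized the counts with DESeq2 (a size factor per sample). What they deposited are log2 normalized counts, for 547 genes. All values above 0 counts came back as whole counts within a tolerance of 0.01. Background subtraction is not given in the sources used here. The labels and the methods name different RNA kits. A legend of the study gives other PAT1 and PAT3 group sizes, and the labels were followed.

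All genes were tested together with limma (version 3.58.1, R 4.3.3) on the deposited values, with 3 group means, no covariate, filter or pseudocount, and Benjamini-Hochberg adjustment over 547 genes (threshold 0.05). Fold changes are differences of mean log2 normalized counts. The scripts were tested on simulated data. Alternatives were the methods' test (aov and TukeyHSD), voom, quantile normalization, re-centring on the median, total count scaling, size factors without the 9 genes, a pseudocount of 1, a low filter (mean of 5), covariates, sample weights, each sex and each mouse left out. Lists held the genes on the panel. Genes named from a list were up to 4 called ones with the largest change, and the 5 nearest genes were ranked by Pearson r. A few genes that these rules select are counted but not reported here by name. Other names were given after their values were seen. The genes and lists were chosen with earlier results of these data known. Permutation tests used numpy 2.4.6, with ranks from scipy 1.17.1 and 100000 draws for correlations over 10 mice. No pair of samples agreed within sampling noise.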

Additional observations from a re-analysis of the deposited data

Results flagged for a closer look

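H2-Ab1 in PAT1 replicate 6 was at 11.87 log2 normalized counts, with the nearest of the other 6 PAT1 mice at 12.43. The gap took 0.599 of the range of the group. Of 30 sets of values examined for a mouse far from its group, this was the 1 that stood out, and chance alone gives about 1 in 20. The same mouse was also the lowest of the PAT1 mice in the other 8 genes.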

How the results depend on the processing

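Each fold change was recomputed under 17 other settings (16 for H2-Ea-ps, which failed the low filter) and with each of 24 mice left out. For the 6 genes lower than Control, direction never changed over these 41 alternatives, and H2-Aa, H2-Ab1 and H2-DMa in PAT1 and Cd74 and H2-DMa in PAT3 stayed called in all. The other calls were lost in the settings given above (Cd74 in PAT1 by quantile normalization, Ciita and H2-Eb1 in PAT1 in females, and 4 genes in PAT3 with the T cell covariate, which left 2 of 9 called). Re-centring moved the median of all genes from 0.01 to 0.15 in PAT1 and from 0.03 to 0.22 in PAT3. H2-Ob in PAT1 was called under 12 alternatives and H2-DMb2 under 2. In PAT3 against Control, H2-Ob and H2-Ea-ps were each called, as higher, under 1 alternative.

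In PAT3 against PAT1 the count of 1 became 0 by the methods' test (5 at an unadjusted p under 0.05), quantile normalization (4), total count scaling (4), and with the size factor (6), B cell (0) or T cell (0) covariate and in females (0). It was 2 by voom, re-centring, the low filter, the epithelial covariate and in males, and 6 with sample weights. Over mice left out it ranged from 0 to 6. The cause was not tested. Ciita and Cd74 changed sign there with the T cell covariate (0.17 and 0.0839), H2-Ob with the B cell covariate (0.0516) and H2-Ea-ps with sample weights (-0.0745), in males (-0.16) and over mice left out (-0.0151 to 0.11).

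Against Control, signs turned where the difference was not called. H2-Ea-ps in PAT1 was -0.20 in females. H2-DMb2 in PAT3 was 0.19 with the B cell and 1.37 with the T cell covariate. H2-Ob in PAT3 was -0.11 with sample weights, -0.0304 in females and -0.0448 to 0.22 over mice left out. Ratios to Ciita turned for H2-Aa (PAT1 in females -0.0657, over mice left out -0.0769 to 0.18; PAT3 in males -0.0849, over mice left out -0.00829 to 0.20), H2-Ab1 (PAT3 in males -0.12; PAT1 over mice left out -0.0604 to 0.17) and H2-DMa (PAT1 over mice left out -0.13 to 0.0789). Within 1 sex the called ratios kept their direction, and groups as small as 3 mice limit the exact p. Counting error limits H2-Ea-ps, and for H2-Ob it was 16.7% at the Control median. No paired analysis was possible because replicate numbers only follow the order of the samples.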
